A study of Mus musculus with 15 samples.

Results

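Liver tumours that arise side by side in one animal share its germline, its age and its deleted genes, so a direct subtraction of one from the other removes what both share. What is left holds differences between the tumours together with any difference in tumour cell share or in the arrays. Of the 5 hepatocellular carcinomas (HCC) in the series, 4 formed such pairs, namely tumour 1 and tumour 2 of mouse 3151 and tumour 1 and tumour 2 of mouse 4033. These 2 livers were chosen because the labels give both tumours and because both dye orientations were hybridised for each, which makes 8 of the 15 arrays. Mouse 3151 was a female of 16.4 months carrying Alb-Cre with Mad2l1 f/f and Trp53 f/+, and mouse 4033 a male of 13.9 months carrying Alb-Cre with Mad2l1 f/f and Trp53 f/f. Both were on a C57BL/6.129 background, and the labels call the genes Mad2 and p53. Unaffected liver of each of the same mice was measured too. The unaffected liver of mouse 3760, a male of 13.8 months with Mad2l1 f/f and Trp53 f/f, was used for scale only. The reference DNA on every array came from normal C57BL/6.129 liver of the other sex, male for mouse 3151 and female for mouse 4033, and was wild type per the study.

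The spindle assembly checkpoint holds a dividing cell in mitosis until every chromosome is attached to the spindle. Mad2l1 is a core component of it, and cells that divide without the checkpoint can gain or lose whole chromosomes. Trp53 encodes p53, which halts or kills cells with damaged or abnormal genomes. Alb-Cre is active in the hepatocyte lineage, so blood vessel and immune cells of a tumour keep the floxed alleles, and a tumour value is an average over all cells in the piece. The share of tumour cells in each piece was not measured. A deleted floxed allele marks cells of the hepatocyte lineage, tumour or not, and the floxed probes were not used to estimate a share. A flatter profile with smaller gains and losses and a smaller share of tumour cells cannot be told apart.

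Array comparative genomic hybridisation (aCGH) lets tissue and reference DNA, labelled with different dyes, compete for short probes on a slide. The level of a probe is log2 of tissue over reference after centring each array on the median of its 40726 autosomal probes, and the level of an autosome is the mean over its probes. The difference is tumour 1 minus tumour 2, taken probe by probe with both dye orientations averaged, so a positive difference means more DNA in tumour 1. Each tumour is 1 sample and there is no replicate of a pair, so no test was possible between tumours. The error given is technical, from the forward and the dye-swap measurement of the same DNA. The threshold for an autosome is 0.3 in absolute value, the limit the study used for whole-chromosome events. An autosome is called shared when both tumours pass it in the same direction, and private when 1 tumour passes it and the difference does too.

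Both tumours of mouse 3151 were hybridised on 1 slide and scanned on the same day. In mouse 4033, tumour 1 was on a slide with its own unaffected liver and tumour 2 on another slide scanned on the other day, so tumour, slide and scan day cannot be told apart in that pair. Probe noise was 0.17 and 0.18 in tumours 1 and 2 of mouse 3151, and 0.11 and 0.19 in tumours 1 and 2 of mouse 4033. On the 8 tumour arrays the median green signal was 3.78 to 6.56 times background and the median red signal 4.64 to 7.95 times. Between 0.251% and 2.25% of the spots were not well above background.

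The probes on which the statements about single genes and about the position of steps rest are given here as they stand on the array. The first pair lies in the floxed genes. The others are neighbouring probes of 1 gene between which the segmentation of the difference placed a step in mouse 3151. The positions are those of the array files, which name neither the genome build nor the strand, and do not say whether a probe is exonic or intronic.
Mad2l1, chr6:66489958-66490017: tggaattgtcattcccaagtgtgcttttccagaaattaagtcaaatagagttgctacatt
Trp53, chr11:69397121-69397180: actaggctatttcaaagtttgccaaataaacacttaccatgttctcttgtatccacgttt
5230400G24Rik, proximal of the step, chr1:82727671-82727730: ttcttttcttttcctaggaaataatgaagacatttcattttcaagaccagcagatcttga
5230400G24Rik, distal of the step, chr1:82747070-82747129: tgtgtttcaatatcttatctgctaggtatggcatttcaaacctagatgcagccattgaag
Tcf20, proximal of the step, chr15:82650807-82650866: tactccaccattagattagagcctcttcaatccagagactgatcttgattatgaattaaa
Tcf20, distal of the step, chr15:82667423-82667482: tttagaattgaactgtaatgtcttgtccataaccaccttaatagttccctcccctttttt

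The floxed genes were examined first, since both tumours of a liver carry the same alleles per the labels. In mouse 3151, the Mad2l1 probe was at -0.65 on the forward and -0.78 on the dye-swap array of tumour 1, and at -0.97 and -1.48 in tumour 2. The unaffected liver of that mouse gave 0.02 and 0.00. Both tumours lay below the liver on every array, and tumour 2 below tumour 1. The difference was 0.51, with 0.32 on forward and 0.70 on dye-swap arrays, while the mean of the 10 neighbouring probes differed by 0.05. Normexp background correction lowered it to 0.27.

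In mouse 4033, the same probe was at 0.73 and 0.45 in tumour 1, 0.47 and 0.60 in tumour 2, and 0.71 and 0.67 in the unaffected liver. The arrays of the tumours overlapped, and none of the 6 arrays lay below the reference. The difference was 0.06 and changed sign between orientations, from 0.26 to -0.15. The 10 neighbouring probes, in contrast, were at -0.28 in tumour 1 and 0.36 in tumour 2, a difference of -0.63. The Mad2l1 probe thus stood 0.87 above its neighbours in tumour 1, 0.18 in tumour 2 and 0.68 in the liver. In this mouse the probe did not show the loss that the labelled genotype Mad2l1 f/f would give, and the array files do not say whether it lies in the floxed part. In mouse 3151 the same probe stood at -0.96 and -1.41 from its neighbours in tumours 1 and 2, and at 0.17 in the liver. Why the mice differed at this probe was not tested.

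The Trp53 probe was low in all 4 tumours. In mouse 3151 it was at -1.10 and -1.17 in tumour 1 and -1.06 and -1.07 in tumour 2, against 0.12 and -0.25 in the unaffected liver. The tumours lay close together, with a difference of -0.08. In mouse 4033 it was at -1.78 and -2.28 in tumour 1 and -2.26 and -1.88 in tumour 2, against -0.75 and -0.69 in the liver. The difference was 0.04, with 0.48 on forward and -0.40 on dye-swap arrays, so the orientations of 1 tumour lay further apart than the tumours. Relative to the 10 neighbouring probes, Trp53 was at -0.89 and -0.76 in tumours 1 and 2 of mouse 3151 and at -2.06 and -1.79 in those of mouse 4033.

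**Figure D1:**
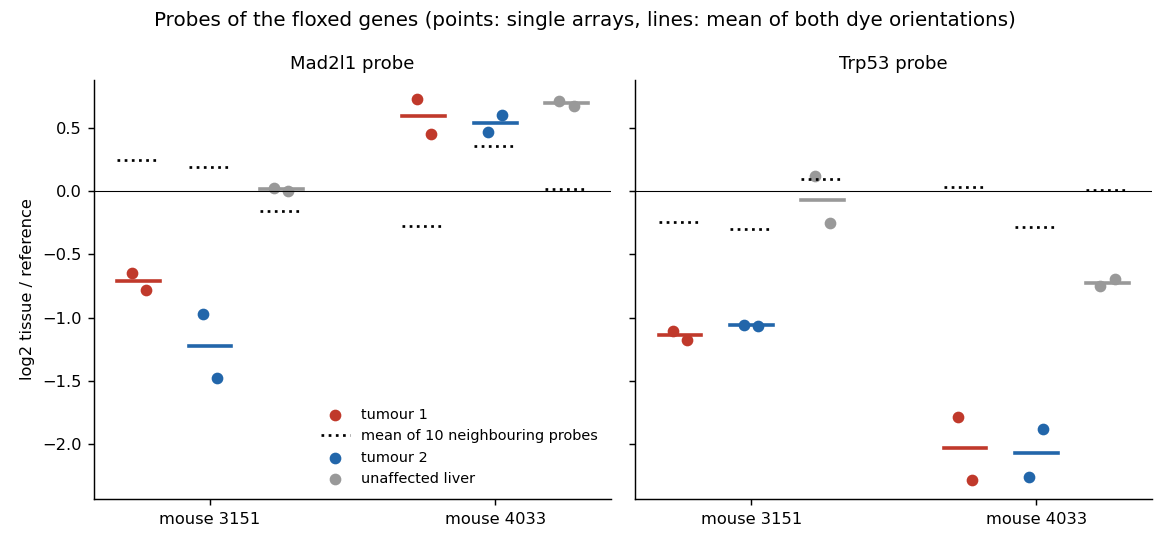
Level (log2 tissue over reference) of the 1 probe in Mad2l1 and the 1 probe in Trp53. Points are single arrays (forward left, dye swap right), solid lines the mean of both orientations, and dotted lines the mean of 10 neighbouring probes. Mad2l1 was lower in tumour 2 than in tumour 1 of mouse 3151 (difference 0.51), and Trp53 was near equal in both tumours of each mouse (-0.08 and 0.04).

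Over 19 autosomes, the tumours of mouse 3151 differed by at least 0.3 on 4 (21.1%) and those of mouse 4033 on 8 (42.1%). The count of mouse 3151 was 2 with normexp background correction and 9 with each array centred on its mode, while that of mouse 4033 was 8 under both, so the order of the mice turned with the mode. The summed absolute difference was 3.60 in mouse 3151 and 5.53 in mouse 4033. The orientation error, taken as the forward difference minus the dye-swap difference divided by 2, summed to 0.142 and 0.335 over the same autosomes. Its largest value was 0.02 on any autosome of mouse 3151 and 0.05 in mouse 4033, so each called difference was larger than the technical error of every autosome. All 4 and all 8 had the same sign in both orientations, and 3 of the 4 and 8 of the 8 were past 0.3 in each. Across the 19 autosomes, which share arrays and depth and are not independent, forward and dye-swap differences correlated with r = 0.998 in mouse 3151 and 0.996 in mouse 4033.

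**Figure D2:**
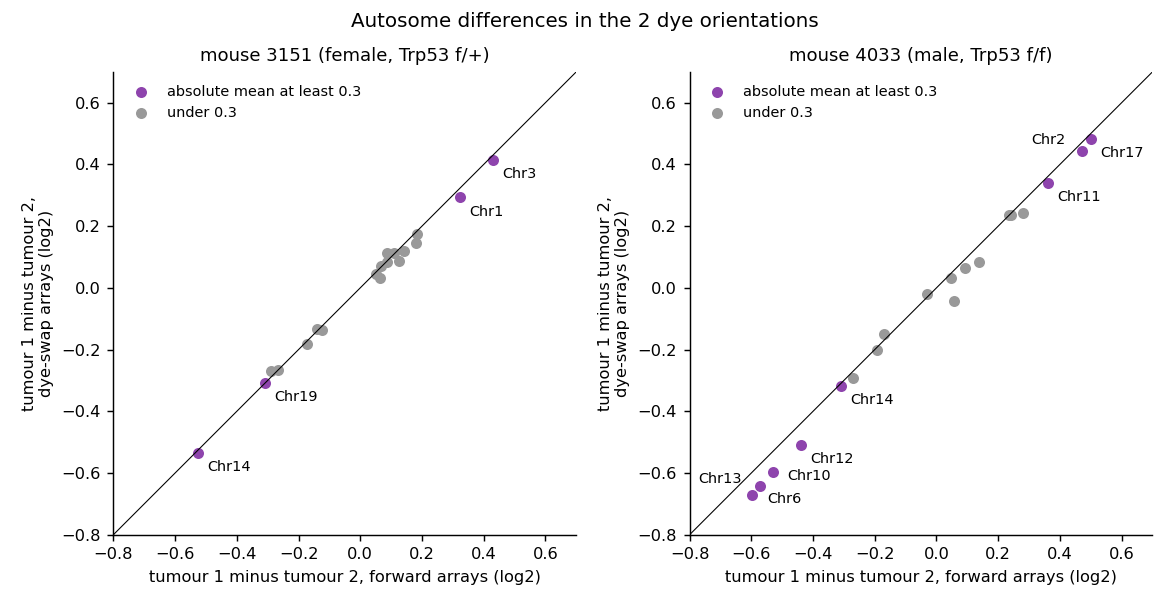
Mean difference between tumour 1 and tumour 2 (log2) for each of 19 autosomes on forward arrays (x axis) and on dye-swap arrays (y axis), with the line of equality. Purple points have an absolute mean difference of at least 0.3, 4 in mouse 3151 and 8 in mouse 4033, and all lie near the line.

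In mouse 3151, the tumours shared gains of Chr12 and Chr15 and differed most on Chr14 and Chr3. Chr12 was at 0.56 in tumour 1 and 0.45 in tumour 2, and Chr15 at 0.33 and 0.50. Chr14 was at -0.15 in tumour 1 and 0.38 in tumour 2, a difference of -0.53 (-0.53 forward, -0.54 dye swap). Chr3 was at 0.07 in tumour 1 and -0.35 in tumour 2, a difference of 0.42 (0.43 forward, 0.42 dye swap). Both were therefore private to tumour 2, a gain of Chr14 and a loss of Chr3. The unaffected liver was at 0.02 on Chr14 and -0.03 on Chr3.

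On 2 further autosomes of mouse 3151 the tumours differed although neither passed 0.3. Chr1 was at 0.08 in tumour 1 and -0.22 in tumour 2 (difference 0.31), and Chr19 at -0.22 and 0.09 (difference -0.31). Both lay just inside the threshold, with Chr8 (-0.28) and Chr5 (-0.27) just outside it. On Chr6, Chr7, Chr11, Chr16, Chr17 and Chr18 only 1 tumour passed 0.3 and the difference, between -0.13 and 0.18, did not, so these 6 were neither shared nor private. Tumour 1 had 4 autosomes past 0.3 and tumour 2 had 8.

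In mouse 4033, the shared changes were losses of Chr3 and Chr4 and gains of Chr15 and Chr18. Chr3 was nearly equal, at -0.36 and -0.37 in tumours 1 and 2, and Chr18 at 0.40 and 0.43. Chr4 was at -0.34 and -0.45, and Chr15, the highest autosome of both tumours, at 0.56 and 0.72. By its mean level, Chr15 was the 1 autosome that was shared in both livers. It carries Myc, but in mouse 3151 the Myc probe lies in a proximal stretch where only tumour 2 passed 0.3. Over that stretch tumour 1 was at 0.18 and tumour 2 at 0.50.

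Chr6, which carries Mad2l1 and Met, went opposite ways in the tumours of mouse 4033. It was at -0.32 and -0.34 on the forward and dye-swap arrays of tumour 1 and at 0.28 and 0.33 on those of tumour 2. The difference of -0.63 was the largest over the autosomes of both pairs, and corresponds to 0.644 times as much Chr6 DNA in tumour 1 as in tumour 2. No other autosome of either pair passed 0.3 in opposite directions. With the own liver as zero, tumour 2 fell just short of 0.3 on Chr6, which then counted as private to tumour 1.

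In mouse 4033, 4 autosomes were private to tumour 1 and 2 to tumour 2. Chr10 was at -0.55 in tumour 1 and 0.01 in tumour 2 (difference -0.56), and Chr13 at -0.49 and 0.12 (-0.61). Chr12 was at -0.37 and 0.10 (-0.47), and Chr2 at 0.33 and -0.12 (0.46). Private to tumour 2 were a loss of Chr17, at 0.08 in tumour 1 and -0.41 in tumour 2 (0.49), and a gain of Chr14, at 0.14 and 0.45 (-0.31). Chr11 differed by 0.35 with neither tumour past the threshold (0.08 and -0.27). Chr1, Chr5, Chr8 and Chr19 passed 0.3 in tumour 1 alone and differed by 0.26, 0.24, 0.24 and -0.28, which left them neither shared nor private. In all, 13 autosomes passed 0.3 in tumour 1 and 7 in tumour 2.

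**Figure D3:**
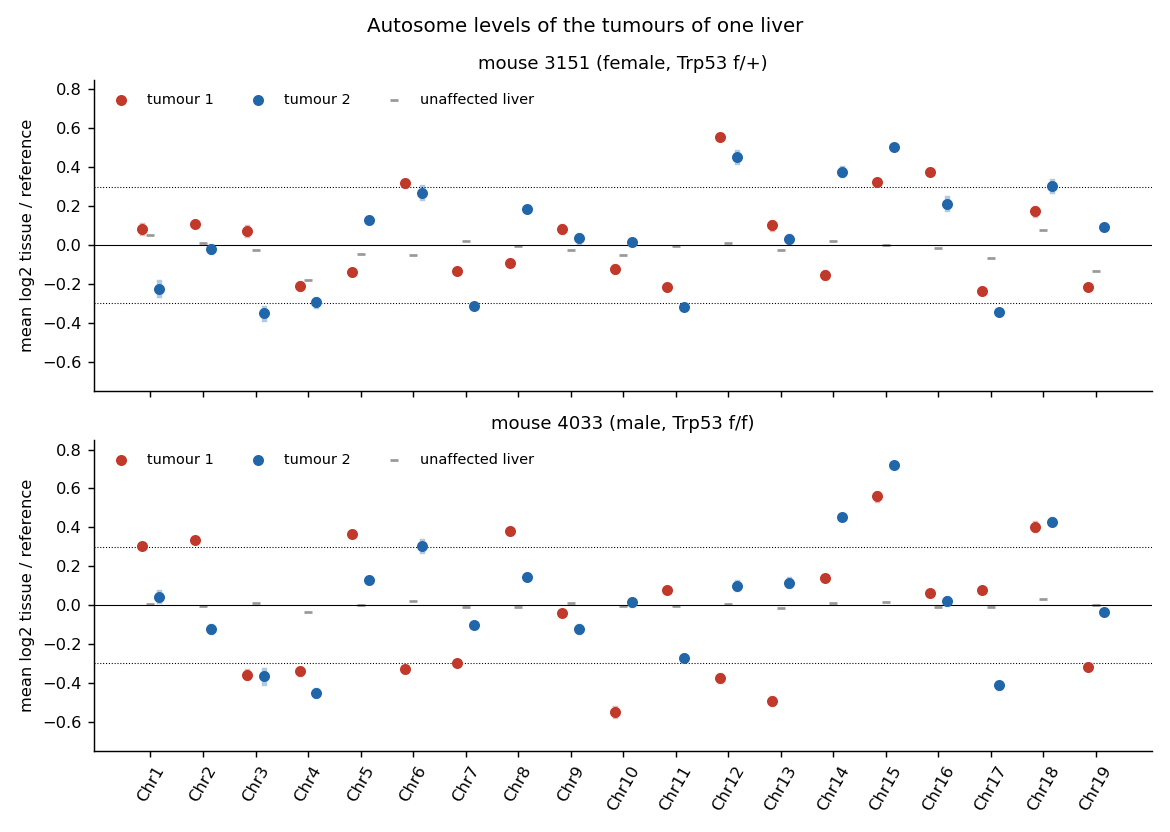
Mean level (log2 tissue over reference) of each autosome in tumour 1 (red), tumour 2 (blue) and the unaffected liver of the same mouse (grey). Points are means of both dye orientations, the pale bars behind them span the forward and the dye-swap array, and dotted lines mark 0.3 and -0.3. Chr12 and Chr15 are high in both tumours of mouse 3151, and Chr6 lies at -0.33 and 0.31 in tumours 1 and 2 of mouse 4033.

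The level of zero is set by the centring, and the count of differences in each direction moves with it. Centring each array on the mode of its probes in place of the median moved the difference by 0.20 on every autosome of mouse 3151 and by -0.21 on every autosome of mouse 4033. In mouse 3151, 8 autosomes were then higher and 1 lower in tumour 1, in place of 2 and 2. In mouse 4033, 0 were higher and 8 lower, in place of 3 and 5. Of the called genes, 89.1% were then higher in tumour 1 of mouse 3151 in place of 52.8%, and 15.8% in place of 50.1% in mouse 4033. Chr12 and Chr15 stayed shared in mouse 3151, and Chr3, Chr4 and Chr15 in mouse 4033, where Chr18 did not. Chr3 of mouse 3151 stayed private to tumour 2, joined by Chr1, Chr7, Chr11 and Chr17, and Chr16 became private to tumour 1, while Chr14 differed by -0.33 with neither tumour past 0.3. In mouse 4033, Chr6, Chr7, Chr10, Chr12, Chr13 and Chr19 were then private to tumour 1 and Chr14 to tumour 2, while the difference on Chr2 (0.25) and Chr17 (0.29) fell short of 0.3. The distance between autosomes does not depend on the centring. It spanned 0.95 from Chr14 to Chr3 in mouse 3151 and 1.13 from Chr6 to Chr17 in mouse 4033.

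For scale, the same sums were taken over other pairs. The 3 pairs of unaffected livers, from mice 3151, 3760 and 4033, had summed absolute differences from 0.446 to 0.768 and 0 autosomes past 0.3. The lowest was the pair of mice 3760 and 4033, both male with Trp53 f/f. The 4 pairs of tumours from different mice ranged from 2.28 to 6.66, so the values of the pairs from one liver (3.60 and 5.53) lay within that range. The lowest of all tumour pairs was tumour 2 of mouse 3151 with tumour 2 of mouse 4033, which differed past 0.3 on 1 autosome. Levels of the tumours of one liver correlated across 19 autosomes with r = 0.598 in mouse 3151 and 0.417 in mouse 4033. With the liver subtracted from both, which makes them share it, r was 0.555 and 0.394. The 4 pairs of tumours from different mice ranged from r = 0.043 to 0.861, a range that holds 0.598 and 0.417. Highest was tumour 2 of mouse 3151 with tumour 2 of mouse 4033. That pair had 5 autosomes past 0.3 in the same direction, against 2 and 4 in the pairs from one liver. These pairs share tissues with each other and were not tested.

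Chromosome X was at 0.35 in tumour 1 and 0.30 in tumour 2 of mouse 3151, a difference of 0.05, with the unaffected liver at 0.88 against a male reference. Both tumours thus lay below their own liver. In mouse 4033 it was at -0.68 in tumour 1 and -1.30 in tumour 2, with the unaffected liver at -0.92 between them. The difference of 0.62 was 0.75 on forward and 0.49 on dye-swap arrays, a wider gap between orientations than on any autosome of that mouse.

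To ask whether the tumours differed over parts of autosomes, the difference was divided into segments along each autosome. A step between segments had to exceed a penalty set by the probe noise, and a segment held at least 5 probes. In mouse 3151 the difference fell into 31 segments, with 12 steps on 8 autosomes, and in mouse 4033 into 25 segments, with 6 steps on 4 autosomes. The orientation error, segmented in the same way, gave 0 steps in mouse 3151 and 1 in mouse 4033. Stretches of less than one part in 2 of an autosome that lay at least 0.3 from its median difference numbered 3 in mouse 3151, of which 2 were on Chr1 and 1 on Chr5, and 1 in mouse 4033, on Chr13. The orientation error gave 0 of them, and on dye-swap arrays alone the counts were 2 and 6. Segments with an absolute difference of at least 0.3 held 24.0% of the autosomal probes in mouse 3151 and 42.0% in mouse 4033. By segment, 5.81% of probes were in shared gains or losses in mouse 3151 and 18.5% in mouse 4033. Private segments held 2.86% (tumour 1) and 11.8% (tumour 2) of the probes in mouse 3151, and 20.7% and 8.11% in mouse 4033. A further 31.2% in mouse 3151 and 21.7% in mouse 4033 lay where 1 tumour passed 0.3 and the difference did not. In 9.41% and 7.31% only the difference passed, and 5.89% were opposite in mouse 4033.

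**Figure D4:**
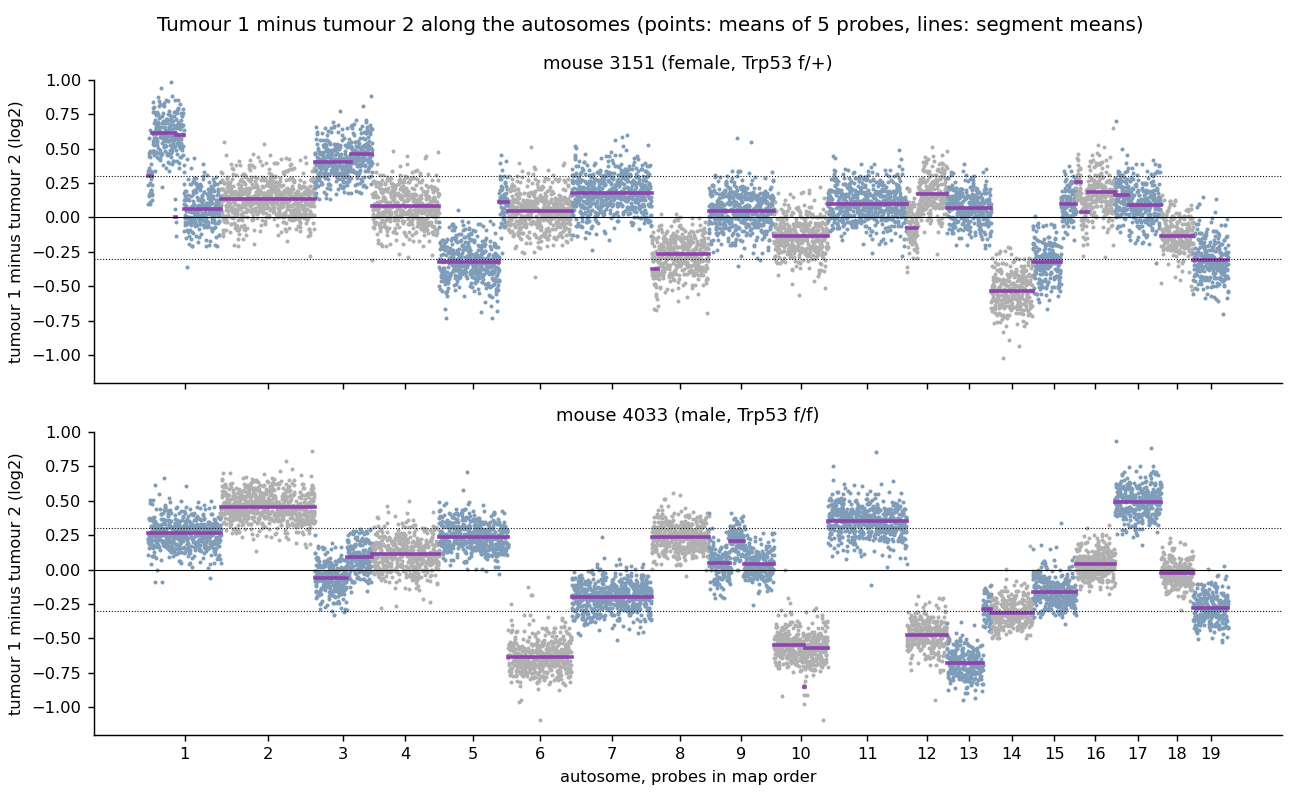
Tumour 1 minus tumour 2 (log2) along the 19 autosomes, with probes in map order. Points are means of 5 neighbouring probes, purple lines the means of segments, and dotted lines 0.3 and -0.3. Most autosomes form 1 level, and Chr1 and Chr5 of mouse 3151 and Chr13 of mouse 4033 carry steps within the chromosome.

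Chr1 of mouse 3151 held the steps of largest size over both pairs, where the difference stepped by -0.61 and 0.60. From chr1:19332221-81741695 (854 probes) tumour 1 was at 0.34 and 0.39 on forward and dye-swap arrays and tumour 2 at -0.29 and -0.21, a difference of 0.61. From chr1:82747070-100446595 (300 probes) the levels were 0.36 and 0.35 in tumour 1 and -0.27 and -0.22 in tumour 2, a difference of 0.60. Distal of 101960228, over 1384 probes, both tumours were low, at -0.18 and -0.24, and the difference was 0.06. The mean of Chr1 as a whole, 0.08 and -0.22, thus joined stretches where tumour 1 was past 0.3 with stretches where it was low. From 19332221 to the distal end, tumour 2 was between -0.25 and -0.24 in every stretch, short of 0.3.

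Between these stretches lay an interruption of 21 probes at chr1:82021018-82727730, where the tumours did not differ (difference 0.00). Tumour 1 fell there to -0.24, the level of tumour 2, from 0.36 on both sides, and the liver was at -0.02. The single arrays of tumour 1 gave -0.32 and -0.16 and those of tumour 2 -0.25 and -0.23, so the arrays of both tumours overlapped. The array annotates the stretch to 7 names, among them Irs1, an adaptor of insulin signalling, and Col4a3 and Col4a4, which encode collagen chains of basement membranes. The step at its distal end fell between the pair of 5230400G24Rik probes printed above. At the proximal end of Chr1, chr1:4336501-19224722 (168 probes), tumour 1 was at 0.39 and tumour 2 at 0.10, and tumour 2 stepped down by 0.35 where tumour 1 stepped by -0.03.

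Chr5 and Chr15 of mouse 3151 changed level in tumour 1 near their distal ends. On Chr5, tumour 1 was at -0.20 over 2243 probes and at 0.29 over the last 332 probes (chr5:138684047-152450894), while tumour 2 was at 0.12 and 0.17. The difference went from -0.32 to 0.11, with 0.13 and 0.11 in the orientations, and the distal stretch lay 0.41 from the median difference of Chr5, further than any stretch of Chr1 from its own. Relative to the liver, tumour 2 had a smaller step of its own, from 0.16 to 0.25, between 136232911 and 136253103. On Chr15, tumour 1 was at 0.18 over 1049 probes and at 0.60 over the distal 566 (chr15:82667423-103395462), and tumour 2 at 0.50 in both. In the difference, the step lay between the Tcf20 probes printed above, 16.6 kb apart, and was 0.43 on forward and 0.41 on dye-swap arrays. In tumour 1 minus liver it was placed further distal, between 82696652 and 82728343, so its position within Tcf20 is not settled. The gain of Chr15 that the means of both tumours shared was thus past 0.3 in both tumours over the distal part only, which does not hold Myc.

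Smaller steps of mouse 3151 on Chr8, Chr12 and Chr16 lay in tumour 2. On Chr12 the step of the difference was placed after 47699275, where tumour 2 went from 0.61 to 0.39 and tumour 1 stayed at 0.54 and 0.56. In tumour 2 minus liver the step was placed between 52824006 and 52847090, so its position differed between the profiles. On Chr16 tumour 2 was at 0.32 over chr16:13254648-22254283, against 0.15 and 0.19 on either side, with tumour 1 at 0.36 there. On Chr8 the first 231 probes differed by -0.37 and the rest by -0.27. The steps on Chr3 (0.06) and Chr17 (-0.07) were the smallest, and neither was found in a tumour minus its liver.

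**Figure D5:**
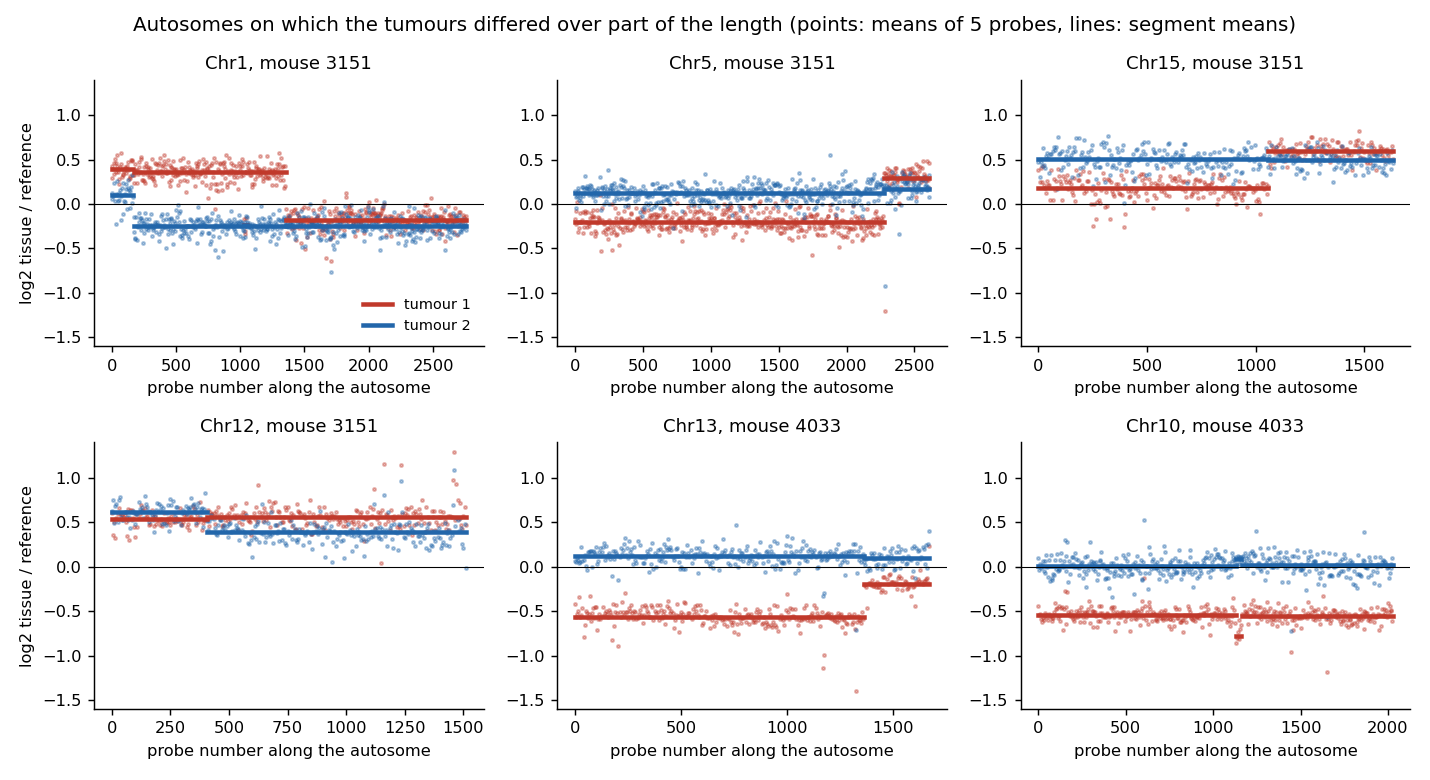
Level (log2 tissue over reference) of tumour 1 (red) and tumour 2 (blue) along 6 autosomes, with probes in map order. Points are means of 5 neighbouring probes and lines are the means within segments of the difference. On Chr15 of mouse 3151 the level of tumour 1 goes from 0.18 to 0.60 while tumour 2 stays at 0.50, and on Chr13 of mouse 4033 tumour 1 goes from -0.56 to -0.19.

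In mouse 4033, the step of largest size was on Chr13. Over the first 1350 probes tumour 1 was at -0.56 and tumour 2 at 0.12, a difference of -0.68. Over chr13:98983461-120274738 (307 probes) tumour 1 was at -0.19 and tumour 2 at 0.10, a difference of -0.29 (-0.25 forward, -0.33 dye swap). The loss of Chr13 in tumour 1 was therefore less deep over its distal end, and the change lay in tumour 1, which stepped by 0.37 against -0.02 in tumour 2.

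On Chr10, which was at -0.54 and -0.55 in tumour 1 of mouse 4033 on either side, 33 probes at chr10:79353883-79828950 were at -0.77 and -0.78 on its arrays. Tumour 2 was at 0.07 and 0.09 and the liver at 0.01, and the difference was -0.86. The stretch lay 0.28 from the chromosome median, under the limit of 0.3. With GC content regressed out, the mean difference over the same probes was -0.86. Its probes had a mean GC content of 40.7% against 36.1% over Chr10. It is annotated to 25 names, among them Stk11, a tumour suppressor kinase of energy sensing, whose 1 probe differed by -0.79 (-0.55 forward, -1.02 dye swap). The remaining steps of mouse 4033 lay in tumour 2. On Chr9 it was at -0.25 over chr9:45715461-66114489 against -0.07 and -0.10 on either side, and on Chr3 at -0.30 and then -0.44, with tumour 1 at -0.36 and -0.35.

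Steps were also sought in each tumour minus its own liver. Tumours 1 and 2 had 5 and 6 steps in mouse 3151, and 11 and 5 in mouse 4033. None of the steps of tumour 1 lay within 50 probes of a step of tumour 2 in the same mouse. No step was thus found in both tumours of a liver at this resolution, a median spacing of 21.5 kb between probes, and the steps of the difference on Chr3 and Chr17 of mouse 3151 were placed in neither tumour. Where a step is too small for the noise of the other tumour, it was not detectable.

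Regions that an animal inherits are passed to both its tumours, although their levels there need not stay equal, and the subtraction was checked on them. The unaffected liver of mouse 3151 had 28 focal regions against the reference, with a median absolute shift of 0.68 from the chromosome median. The same regions had a median of 0.66 in tumour 1, 0.64 in tumour 2 and 0.08 in the difference, and 0 of 28 passed 0.3 in the difference. In tumours 1 and 2, 26 and 25 of the 28 were past 0.3 the same way as in the liver. In mouse 4033 there were 97 regions, of which 81 in tumour 1 and 61 in tumour 2 were past 0.3 the same way as in the liver. Medians were 0.43 in the liver, 0.47 and 0.39 in tumours 1 and 2, and 0.11 in the difference, in which 8 regions passed 0.3. Of the 8, 1 lay on Chr6, in a stretch that tumour 2 minus liver set apart, chr6:54212324-54527893 (9 probes, annotated to Chn2, Fkbp14, Prr15 and Scrn1) was at 0.63 in the liver, 0.21 in tumour 1 and 0.40 in tumour 2. Its difference of -0.19 stood 0.47 above the Chr6 median difference.

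Genes were compared through the mean of their probes. A gene was called when its difference was at least 0.3 in absolute value and had one sign in both orientations. In mouse 3151, 17.1% of 19819 genes were higher and 15.2% lower in tumour 1, and in mouse 4033 23.0% and 22.9% of 19865. Probe noise of the difference was 0.25 and 0.19, so a call on 1 probe is within reach of noise, and 3131 of 6403 called genes of mouse 3151 and 4146 of 9118 of mouse 4033 had 1 probe. Of the called genes, 38.0% lay on the differing autosomes in mouse 3151 (19.0% of all genes did) and 73.7% in mouse 4033 (42.8% of all genes).

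Myc, the growth-promoting transcription factor on Chr15, and Met, the receptor of hepatocyte growth factor on Chr6, were examined as single genes. The Myc probe in mouse 3151 was at -0.02 and -0.12 in tumour 1 and at 0.01 and 1.44 in tumour 2. Its difference of -0.79 rested on 1 dye-swap array, since forward arrays gave -0.03. In mouse 4033 it was at 0.30 and 0.61 in tumour 1 and 1.14 and 0.68 in tumour 2, a difference of -0.45 against -0.19 in the neighbouring probes. The 3 Met probes averaged 0.31 and 0.24 in tumours 1 and 2 of mouse 3151. In mouse 4033 they averaged -0.09 and 0.47, a difference of -0.56 whose mean was 0.01 from that of the neighbouring probes. The single probes were spread more widely. Their differences were -0.54, -0.24 and -0.91, which lay 0.01, 0.40 and -0.39 from those of their neighbours.

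Among spindle checkpoint genes, 12 of 15 listed were measured. In mouse 3151, 4 were higher in tumour 1 and 0 lower, beside 17.1% and 15.2% of all genes, with a list median of 0.09 against 0.04 over all genes. Of the others, Mad1l1 was at -0.24 and Zwint at -0.16. Beside Mad2l1, the higher genes were Bub1b (0.47), the checkpoint kinase-like protein BubR1, and Mad2l2 (0.32). Cdc20 (0.41), the activator of the anaphase-promoting complex that Mad2l1 inhibits, was higher too. Mad2l1, Mad2l2 and Cdc20 rest on 1 probe each. None of the 4 lies on an autosome that differed in this mouse. In mouse 4033, 5 were higher and 1 lower, beside 23.0% and 22.9% of all genes, with a median of 0.15 against 0.04. Bub1 (0.77), a checkpoint kinase, and Bub1b (0.55) lie on Chr2, Mad2l1bp (0.60), which encodes a Mad2l1-binding protein, on Chr17, and Zwint (-0.54), a kinetochore protein, on Chr10. All of these 4 are on autosomes that differed the same way.

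Of the p53 pathway, 12 of 13 listed genes were measured. In mouse 3151, 3 were higher and 2 lower, beside 17.1% and 15.2% of all genes (median 0.03 against 0.04). Ccng1 (0.48), a p53 target, and Trp53bp1 (0.37), which binds damaged DNA, were higher, and Chek2 (-0.49), a kinase that activates p53, and Gadd45a (-0.48), a p53 target, lower. In mouse 4033, 5 were higher and 3 lower, beside 23.0% and 22.9% of all genes (median 0.19 against 0.04). Trp53bp1 was at 0.61, Ccng1 at 0.58, Gadd45a at -0.92 and Mdm2, the ligase that degrades p53, at -0.51. Gadd45a and Ccng1 are each on 1 probe. Mdm2 lies on Chr10, Gadd45a on Chr6, Ccng1 on Chr11 and Trp53bp1 on Chr2, all among the differing autosomes of that mouse.

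Of 17 liver cancer oncogenes, 14 were measured. In mouse 3151, 2 were higher and 2 lower, beside 17.1% and 15.2% of all genes (median 0.04 against 0.04). Mcl1 (0.51), which protects from cell death and lies on Chr3, and Ccnd1 (0.36), cyclin D1, were higher. Myc (-0.79) and Vegfa (-0.38), a growth factor of blood vessels, were lower. In mouse 4033, 2 were higher and 5 lower, beside 23.0% and 22.9% of all genes (median -0.18 against 0.04). Braf, a kinase of the MAP kinase pathway with 7 probes on Chr6, was at -0.32 in tumour 1 and 0.49 in tumour 2, a difference of -0.81 (-0.84 forward, -0.77 dye swap). Tert (-0.60), the catalytic subunit of telomerase on Chr13, and Met were lower, and Egfr (0.54), the receptor of epidermal growth factor on Chr11, was higher.

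All 13 liver tumour suppressors were measured. In mouse 3151, 0 were higher and 4 lower in tumour 1, beside 17.1% and 15.2% of all genes (median 0.01 against 0.04). These were Rb1 (-0.44), which restrains entry into the cell cycle and lies on Chr14, Dlc1 (-0.40) and Cdh1 (-0.38), E-cadherin, both on Chr8, and Keap1 (-0.33), an inhibitor of the oxidative stress response. In mouse 4033, 4 were higher and 1 lower, beside 23.0% and 22.9% of all genes (median 0.09 against 0.04). Tsc1 (0.63) and Tsc2 (0.55), which together inhibit growth signalling through mTOR, and Axin1 (0.58), a scaffold of the complex that degrades beta-catenin, were higher, and Stk11 was lower.

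Of 13 hepatocyte genes, all measured, 2 were higher and 2 lower in mouse 3151. Beside them were 17.1% and 15.2% of all genes (median 0.03 against 0.04). Cps1, the first enzyme of the urea cycle, lies in the Chr1 stretch gained in tumour 1 and was at 0.54 in tumour 1 and -0.22 in tumour 2, a difference of 0.76. Alb (-0.51), the albumin gene, lies on Chr5, and Fah (0.38), an enzyme of tyrosine breakdown, on Chr7. In mouse 4033, 1 was higher and 2 lower, beside 23.0% and 22.9% of all genes (median 0.23 against 0.04). Hnf4a (0.57), a liver transcription factor on Chr2, was higher, and Apob (-0.61), the protein of very low density lipoprotein, on Chr12, and Cebpa (-0.56) lower. Over the 5 lists, 3 of 21 called members (14.3%) lay on the differing autosomes in mouse 3151, against 38.0% of all called genes, and 21 of 29 (72.4%) in mouse 4033, against 73.7%.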

How the data were processed

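Genomic DNA was measured on Agilent 44K mouse CGH arrays with 2 colours. Per the file headers, the authors made the processed intensity values with Agilent Feature Extraction 9.1.3.1, with background subtracted and dyes normalised within each array. The log10 ratios that the authors deposited in the series matrix were the same as in the scanner files, apart from a turned sign on dye swaps, and served as an alternative. Values were turned into log2 of tissue over reference. Control spots and spots marked as outliers were dropped, repeated spots were averaged per probe, and the autosomal median of each array was set to 0 without loess. The forward and dye-swap values of a tissue were averaged to 1 value, so no group had replicates and no p-value was computed. The difference was measured on 40304 autosomal probes in mouse 3151 and 40432 in mouse 4033. The precision rests on the number of arrays.

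Segments came from optimal partitioning, in which each new segment cost 3 noise variances multiplied by the natural log of the probe number. A segment within an autosome held less than one part in 2 of its probes and lay at least 0.3 from its median difference. Genes named were Mad2l1, Trp53, Met and Myc, and up to 4 called members per list and mouse with the largest difference. Autosomes were named when past 0.3 in a tumour or in the difference, and up to 10 segments per mouse by their distance from the autosome median. The members, lists and thresholds were chosen with earlier results of these data known. A further list member that counts in the totals is not reported here by name. Gene names were taken from the array files and can be old. The processing was run on simulated pairs with known segments and independent noise. Recovery was required only of the longer segments with the larger inserted shift, which does not cover short segments or small shifts.

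Alternatives were normexp background correction (limma 3.58.1, offset 50, R 4.3.3), centring on the mode, each orientation alone, dim probes left out, the series matrix, levels relative to the own liver, thresholds of 0.2 and 0.5, penalties of 2 and 5, and shortest segments of 3 and 10 probes. GC content regressed out was added after seeing the data. Python 3.11.15, numpy 2.4.6, pandas 2.3.3 and numba 0.67.0 were used. Mouse 3760 has 1 tumour here and enters only through its unaffected liver.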

Additional observations from a re-analysis of the deposited data

Results flagged for a closer look

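Over 23 measures in the 4 tumours (19 autosome levels and the levels of 4 genes), 3 had a tumour far from the other tumours, where chance gives about 1 in 20. Chr3 was highest in tumour 1 of mouse 3151, at 0.071, with the other tumours between -0.37 and -0.35. The gap was 0.967 of the whole range. Chr6 was lowest in tumour 1 of mouse 4033, at -0.33, with the others from 0.27 to 0.32 (0.925 of the range). Chr13 was lowest in the same tumour, at -0.49, with the others from 0.03 to 0.12 (0.863 of the range). Tumour 1 of mouse 4033 was the 1 tumour of these pairs scanned on the first day, and the part of slide and scan day in its levels was not tested.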

How the results depend on the processing

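Of the recomputed counts and sums, 74 stayed close to the values reported and 22 moved. Counts and sums of absolute values have no sign and could not reverse. The split of directions moved with mode centring, as given above. In mouse 3151, normexp gave 2 differing and 1 private autosome and a summed difference of 3.28, and centring on the mode 9, 6 and 4.95. In mouse 4033, the sum was 5.07 with normexp and 6.51 with mode centring. At a threshold of 0.5, differing, shared and private autosomes numbered 1, 0 and 0 in mouse 3151 and 3, 1 and 1 in mouse 4033. At 0.2, differing autosomes, here counted as close, numbered 6 in mouse 3151 and 12 in mouse 4033. Mouse 3151 then had 7 shared and 4 private autosomes and 5 segments within an autosome, and mouse 4033 had 11 private autosomes and 2 segments. These segments in mouse 4033 numbered 1 otherwise, 6 on dye-swap arrays alone, 6 with a penalty of 2 and 4 with segments of 3 probes, rules of which the last 2 admit shorter segments. For normexp, mode and dye-swap arrays the cause was not tested. Of the gene values, 45 stayed and 11 moved, and Myc ranged from -1.56 to -0.03 in mouse 3151 and from -0.83 to -0.07 in mouse 4033 over 7 alternatives. Values that stayed could still change sign. Mad2l1 in mouse 4033 ran from -0.15 to 0.26 and Trp53 in mouse 3151 from -0.17 to 0.13, with all 7 counted as staying. Trp53 in mouse 4033 ranged from -0.40 to 0.48. No paired analysis was possible because each tumour is 1 sample and no test was run. Signal over background of 3.78 or more and probe noise limit the shortest segment that can be seen.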
